A study of Mus musculus with 4 samples.

Results

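Chr4-cl KO ES cells were compared with WT ES cells grown in serum at 588613 CpG sites, and gains and losses of CpG methylation were assigned to promoters, gene bodies and intergenic sequence. The sites were those listed once in each deposited table and covered by at least 10 reads in both serum libraries, out of 648759 sites with that coverage in WT cells and 681267 in KO cells. Of them, 587950 lay outside the ETn and RLTR4 retrotransposons that could be placed on the genome. The effect at a site was the methylated share of reads in KO minus that in WT, in percentage points.

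CpG methylation was measured by reduced representation bisulfite sequencing (RRBS-seq), in which MspI cuts the DNA and unmethylated cytosines are converted before sequencing. The series has 4 samples, 1 library each. WT and Chr4-cl KO lines were grown with 20% fetal calf serum and LIF, and the same genotypes after 1 week in 2i + Vitamin C, a medium that lowers methylation across the genome. According to the methods, Chr4-cl KO ES cells derive from B6;129 mice with a cre/ERT insertion at the Gt(ROSA)26Sor locus. A pair of Cas9 guides removed the cluster, whose guide sequences matched chromosome 4 of mm9 at 144973820 and 147227544. Between these matches, 7 sites still passed the coverage minimum, with a median of 20 reads in WT and 55 in KO cells. Why KO reads were placed there was not tested. KO and WT clones were picked after nucleofection with the guide plasmids and a pPGK-puro plasmid and brief puromycin selection. The sources do not say which clone each library came from, and a difference between clones cannot be told apart from one between genotypes. With 1 library per group, the tests on reads below compare these libraries and not the genotypes. Read counts of features and libraries are summed over CpG sites, so a read that spans several sites counts at each.

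The Chr4 cluster encodes KRAB zinc finger proteins (KRAB-ZFPs), which bind DNA through their zinc fingers and recruit KAP1. KAP1 in turn brings the histone methyltransferase SETDB1, which places H3K9me3, and the complex can be accompanied by DNA methylation. In ES cells in serum most CpG-rich promoters are unmethylated and most other sequence is methylated, while imprinted genes carry methylation on the allele from 1 parent only. Germline genes are among the few with CpG-rich promoters that are methylated in these cells.

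The ES cell label was checked on marker promoters. Of 6 pluripotency markers, 4 had covered promoter sites (Pou5f1, Sox2, Tdgf1 and Utf1), with means from 1.07% to 3.96% in WT and from 0.426% to 2.25% in KO cells, and Nanog and Dppa5a had none. The promoters of the germline genes Dazl, Sycp3, Mael, Tex101 and Hormad1 ranged from 15.6% to 82.8% in WT and from 30.3% to 84.1% in KO cells, so they were not uniformly high. Elf5, taken as a trophoblast gene, had 44.3% in WT and 47.4% in KO cells at 2 sites. Summed over all sites, the WT library held 70149313 reads and the KO library 88376738. Chromosome 2 took 1.13 times its WT share of reads in the KO library, with 1.15 times in 2i + Vitamin C. At CpG positions of mitochondrial DNA, which is largely unmethylated, the WT library had 1887 reads, of which 9.43% were called methylated (95% Wilson interval 8.2 to 10.8). The KO library had 820 such reads, 1.71% of them methylated (1.02 to 2.85). These reads include positions with few reads, and the 22 positions with at least 10 reads in both libraries had 3.18% of reads methylated in WT and 1.8% in KO cells. What this difference contributes to the nuclear values was not tested.

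A choice of sequences with large differences outside annotated exons is shown first, taken from mm9 by their coordinates, with measured CpG sites in capitals. The promoter of Pgk1, the glycolytic enzyme phosphoglycerate kinase, was the most gained, and that of Mgmt, a DNA repair enzyme that removes alkyl groups from guanine, lay on an autosome with even coverage. Airn, a non-coding RNA that silences Igf2r on the paternal allele, and Plagl1, an imprinted zinc finger gene, were lost, as was Sfi1, which encodes a centrosome protein. The last pair are the intergenic windows with the largest gain and the largest loss.
Pgk1, chrX:103382073-103382235, plus strand, 163 bases, 8 of 11 CpG sites measured, WT 0 to 10.7%, KO 83.0 to 86.4%: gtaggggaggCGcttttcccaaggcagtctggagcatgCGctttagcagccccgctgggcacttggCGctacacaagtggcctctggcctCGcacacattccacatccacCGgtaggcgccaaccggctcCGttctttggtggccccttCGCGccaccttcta
Mgmt, chr7:144085961-144086127, plus strand, 167 bases, 5 of 7 CpG sites measured, WT 32 to 48.8%, KO 79.3 to 88.5%: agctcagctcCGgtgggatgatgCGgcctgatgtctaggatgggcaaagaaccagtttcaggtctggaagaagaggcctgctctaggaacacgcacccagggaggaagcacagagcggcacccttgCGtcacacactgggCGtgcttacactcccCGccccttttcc
Airn, chr17:12934446-12934626, plus strand, 181 bases, 7 of 10 CpG sites measured, WT 50 to 58.8%, KO 6.48 to 12.5%: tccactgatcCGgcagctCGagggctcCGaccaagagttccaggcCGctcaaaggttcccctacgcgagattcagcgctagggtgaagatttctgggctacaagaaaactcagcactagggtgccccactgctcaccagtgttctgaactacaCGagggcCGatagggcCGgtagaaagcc
Plagl1, chr10:12810419-12810469, plus strand, 51 bases, 3 of 4 CpG sites measured, WT 37.5 to 60.9%, KO 0 to 2.5%: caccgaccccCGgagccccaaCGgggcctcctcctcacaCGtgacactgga
Sfi1, chr11:3093125-3093362, minus strand, 238 bases, 16 of 20 CpG sites measured, WT 0 to 52.2%, KO 0 to 3.55%: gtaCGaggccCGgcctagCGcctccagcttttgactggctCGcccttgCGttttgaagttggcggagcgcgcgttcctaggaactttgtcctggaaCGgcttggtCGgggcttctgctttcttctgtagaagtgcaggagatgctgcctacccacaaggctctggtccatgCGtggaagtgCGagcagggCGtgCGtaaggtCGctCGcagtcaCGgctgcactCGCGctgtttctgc
Intergenic, chr1:152933723-152933929, plus strand, 207 bases, 5 of 8 CpG sites measured, WT 9.09 to 13.8%, KO 76.3 to 86.8%: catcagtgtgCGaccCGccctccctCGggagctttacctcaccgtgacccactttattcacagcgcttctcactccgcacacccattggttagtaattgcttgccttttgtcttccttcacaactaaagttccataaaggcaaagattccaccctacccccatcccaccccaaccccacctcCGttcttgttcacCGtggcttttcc
Intergenic, chr19:45266348-45266508, plus strand, 161 bases, 5 of 7 CpG sites measured, WT 76.1 to 94.3%, KO 21.9 to 41.9%: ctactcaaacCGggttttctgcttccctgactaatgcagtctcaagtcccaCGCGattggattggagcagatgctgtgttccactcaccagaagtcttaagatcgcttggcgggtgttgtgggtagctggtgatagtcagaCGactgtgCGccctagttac
In each stretch except that of Sfi1, whose WT sites ranged down to 0, the lowest site of the higher library lay above the highest site of the lower library.

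Mean methylation over all sites in serum was 32.9% for WT cells and 36.3% for KO cells. The mean difference was 3.36 points, with 1.24 points at the median site. A site was called gained or lost if it differed by at least 20 points with an adjusted p under 0.05 (two-sided Fisher's exact test on reads, Benjamini-Hochberg over all sites). On this rule 10736 sites (1.82%) were gained and 677 (0.115%) were lost, or 15.9 gained for each lost site. Counted over reads instead of sites, 21.3% were methylated in WT and 20.3% in KO cells, so the sign of the total turned to -0.998 points. Within promoter, exon, intron and intergenic sequence, however, the pooled difference was 0.903, 0.574, 0.00485 and 0.236 points, none of them below 0.

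Gains were sparse in promoters and more frequent in transcribed sequence. Promoters were taken from 1000 bp before to 500 bp after a transcription start. Of 259312 promoter sites, 0.69% were gained and 0.0602% were lost, and the mean went from 4.61% to 6.21%. Exonic sites outside promoters had the highest share of gains, with 3.57% of 82206 sites gained, 0.167% lost and means of 44.2% and 49.6%. Introns had 2.73% gained and 0.133% lost among 117409 sites, with means of 54.7% and 59.7%. Intergenic sites had 2.16% gained and 0.176% lost among 129686 sites, with means of 62.6% and 66.7%. The share of gains was lowest within 0.5 kb of a start, at 0.666% before it and 0.672% after it. It rose to 4.03% between 5 and 10 kb after a start and was 3.09% at the same distance before one. Lost shares were also low within 1 kb of a start, from 0.045% to 0.0782%, and were highest, at 0.385%, from 2 to 5 kb before one.

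**Figure D1:**
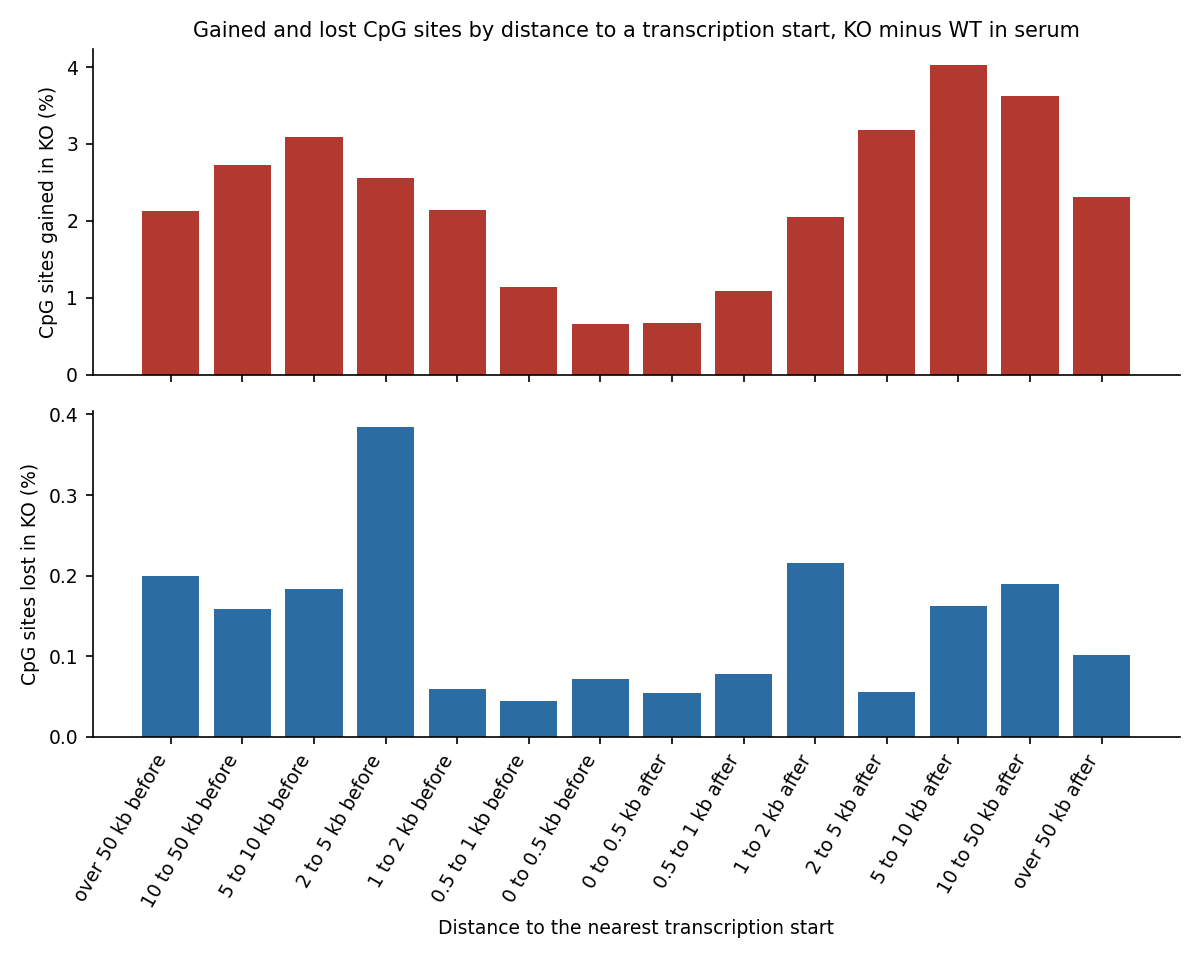
Percent of CpG sites gained (top, red bars) and lost (bottom, blue bars) in KO cells in serum, by the distance of the site to the nearest transcription start; the vertical scales differ. Gains dip to 0.666% and 0.672% on either side of the start and reach 4.03% at 5 to 10 kb after it, whereas losses stay at or below 0.385%.

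The classes lay closer together when only partly methylated sites were compared. Sites were grouped by the mean of both libraries, which treats WT and KO alike. Sites with a mean of 40 to 60% went from 42.3% in WT to 58.6% in KO cells, a difference of 16.4 points, and 16% of these 21866 sites were gained. The difference was 12.6 points at 20 to 40% and 11.3 points at 60 to 80%. It was 0.774 points for the 287165 sites at up to 5% and 0.546 points for sites above 95%, where a 20-point change could hardly occur. Among partly methylated sites, from 20 to 80%, the classes were close, with 12.7% gained in promoters, 13.3% in exons, 10.5% in introns and 9.15% in intergenic sequence. Their mean differences were 13.5, 13.7, 13.4 and 11.9 points. Lost shares at these sites were 1.4% in promoters and 0.598%, 0.451% and 0.712% in exons, introns and intergenic sequence.

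**Figure D2:**
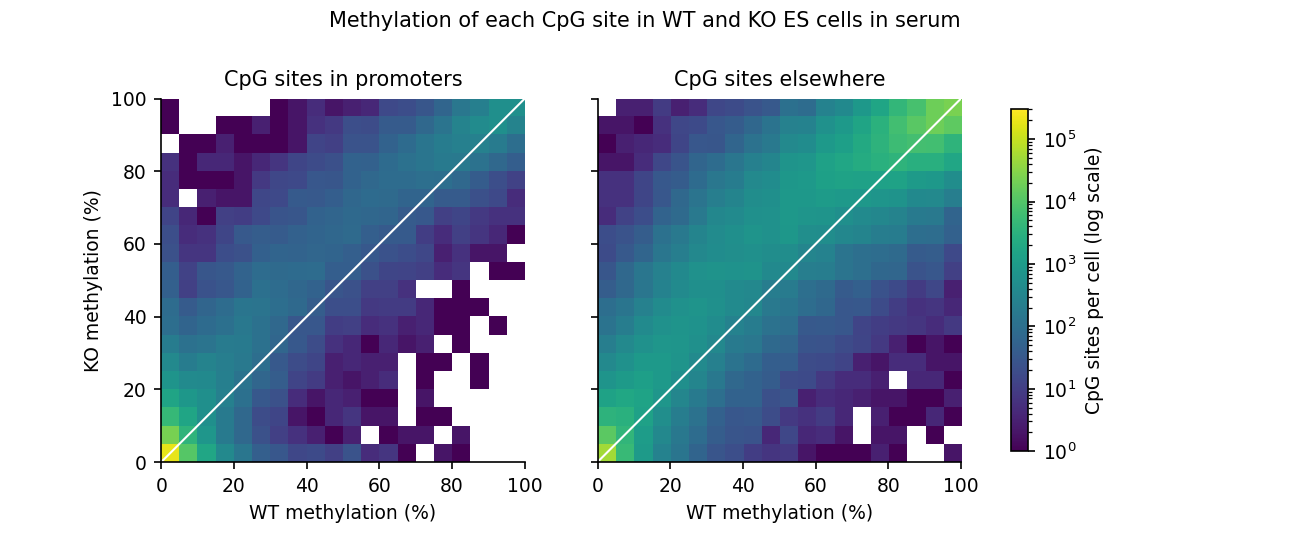
Number of CpG sites (colour, log scale) by WT methylation (horizontal, %) and KO methylation (vertical, %) in 5-point cells, for promoters (left) and all other sites (right); the white line marks equal values. In promoters 93.5% of sites lie under 20% in both libraries, and elsewhere the sites between the corners lie mostly above the line.

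CpG density followed the same course. Sites with 5 to 8 CpGs in the surrounding 200 bp gained most often (3.23%) and had a mean difference of 5.54 points, against 0.382% and 1.08 points where there were more than 20. Called sites tended to lie near one another. Of the gained sites, 63% had another gained site within 500 bp, and of the lost sites 75.6% had another lost one. The median gained site went from 32.7% to 68.2%, and the median lost site from 63.3% to 19.6%. All 19 autosomes had a positive mean difference, from 3.08 to 3.86 points, with 1.42% (chromosome 12) to 2.27% (chromosome 4) of sites gained. Chromosome X was lower, with 2.37 points and 1.24% gained. Chromosome 2, whose read share was raised in KO cells, had 3.33 points and 1.63% gained.

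Promoters of 13141 genes had at least 5 covered sites, and 70 (0.533%) were gained and 10 (0.0761%) were lost on the same rule, applied to the mean of the sites and to the pooled reads. The 10 lost promoters formed 9 distinct sets of sites, because Sgce and Peg10 share theirs. The gained promoters had a WT median of 32.7% and a KO median of 65.5%, against 1.55% and 2.52% for all promoters. They were CpG-poorer, with a median of 9.25 CpGs in 200 bp against 19 for all. Of promoters with 8 or fewer CpGs in 200 bp, 32 of 698 were gained (4.58%), and of those with more than 16, 4 of 8483 (0.0471%). These groups also differed in level, with WT medians of 28% and 1.39%. Of 694 promoters with a mean of both libraries over 20 to 80%, 67 were gained (9.65%). Of the 10629 at up to 5%, where a 20-point change could not occur, 0 were gained. None of the gained or lost promoters touched a placed ETn or RLTR4 element, and of all 13141 promoters only 3 did. By gene type, 62 of the gained promoters were among the 12011 tested of protein-coding genes, 2 among 683 of lincRNAs and 6 among 447 of processed transcripts.

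As an alternative, the median difference of sites in the same 10-point bin of mean methylation was subtracted at each site. Only the size of the difference was centred. Fisher's exact test still used the uncentred reads, and the pooled reads of a feature had to differ in the same direction without centring. The calls were then 3853 gained and 802 lost sites, 16 gained and 22 lost promoters, 27 gained and 21 lost gene bodies, and 67 gained and 59 lost intergenic windows. The split between gains and losses thus depended on whether this shared shift was kept.

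Pgk1 had the largest gain of any promoter, from 7.07% in WT to 83.9% in KO cells over 10 sites. All 10 sites were gained, with single sites between 0 and 15% in WT and between 81.7% and 86.4% in KO cells. The pooled difference was 77.8 points, with a 95% Newcombe interval from 74.6 to 80.1. Like all intervals here, it reflects counting only. Intervals and adjusted p-values from pooled reads take the counts at different sites as independent. Where a read spans several sites, such intervals are too narrow and such p-values too small. Coverage moved with the gain at Pgk1, since the promoter held 351 reads in WT and 4278 in KO cells, summed over its sites. This 12.2-fold ratio was the highest of all 12253 distinct promoters, whose median ratio was 1.38. It was greatest at the 5 sites farthest from the start, with 42 to 44 reads in WT and 729 to 775 in KO cells, and smaller at the others. In 2i + Vitamin C the promoter had 2.88% in WT and 81.7% in KO cells at 8 sites, with 1.22 KO reads per WT read against a median of 0.481. A PGK promoter was part of the pPGK-puro plasmid used in making the clones, and reads from the X-linked gene and from any plasmid copy cannot be told apart in these tables.

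Other genes with large promoter gains were autosomal. The promoter of 2210417A02Rik, a processed transcript, went from 24.1% to 79.7% over 5 sites. Smtnl1, a smoothelin-like protein of muscle, went from 39.1% to 85.9%, on 69 and 100 reads. Wdr20b, a gene of the WD repeat family, rose from 22.3% to 66.9% over 13 sites, of which 9 were gained. Mgmt rose from 38.7% to 83.1%, with all 5 sites gained on 240 and 248 reads and a pooled interval from 36.6 to 52 points. Card6, a gene with a caspase recruitment domain, went from 29.8% to 72.5%. Tnfrsf1a, the receptor for tumour necrosis factor, went from 33.3% to 70.5% over 11 sites, on 2188 and 1821 reads (pooled interval 42.4 to 47.9 points). Its 4 sites closest to the 5′ end had 15 or 16 KO reads and were not called, while the 7 others were gained. Orai2-ps, 1700058G18Rik and Gm6169 had gains of 42.6, 39.5 and 37.3 points. Orai2-ps lost its call at a minimum of 5 reads, with 15.3 points. For Orai2-ps and Gm6169, at least 1 of 3 tested stretches of 50 bp around a site had further exact copies in mm9, so reads could be shared there. All 70 gained promoters had an adjusted p of at most 0.00518 (Fisher's exact test).

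**Figure D3:**
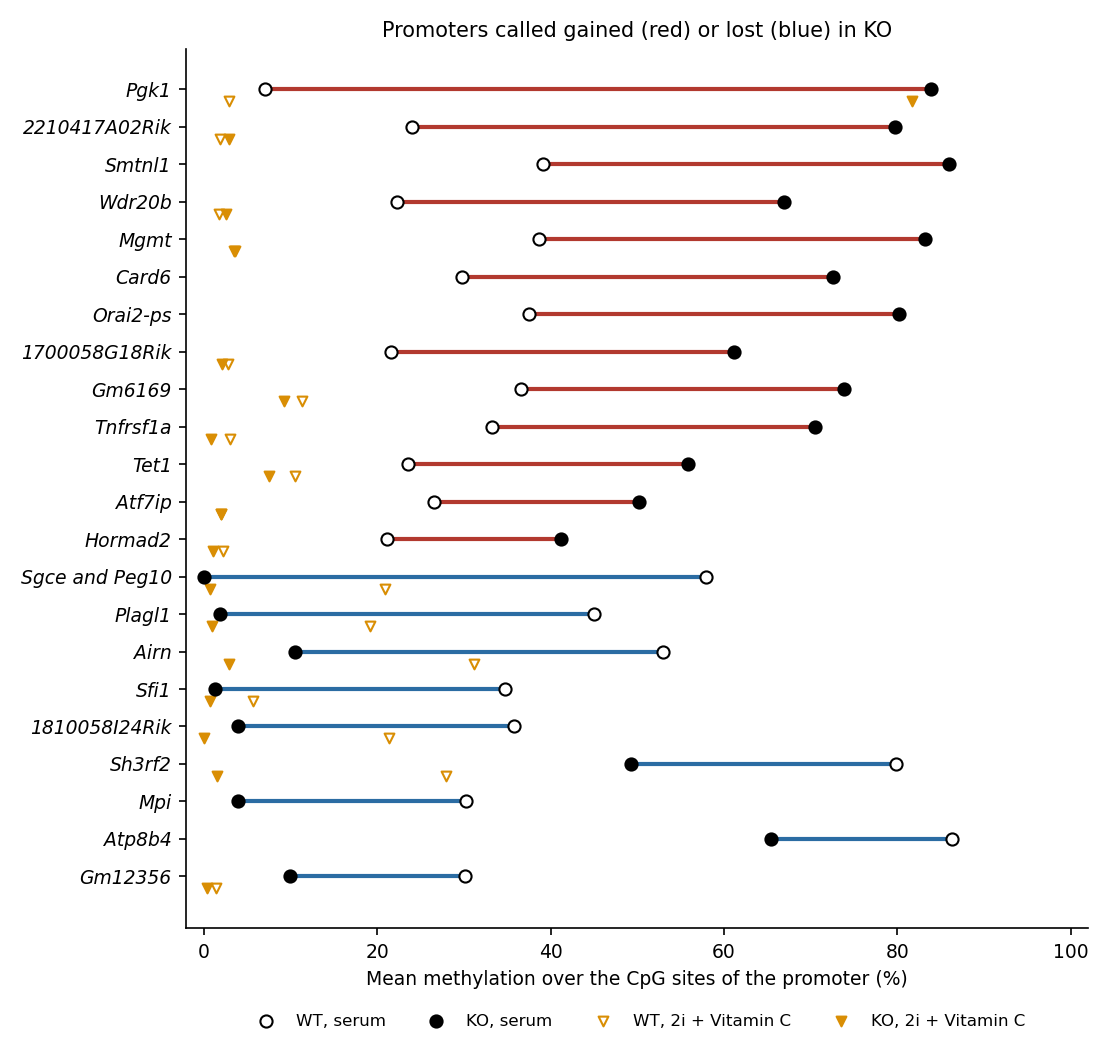
Mean methylation (horizontal axis, %) of each named promoter in serum in WT (open circles) and KO cells (filled circles), joined in red where gained and in blue where lost, and in 2i + Vitamin C where at least 5 sites were covered (triangles). Pgk1 is the only gained promoter drawn here that is also high in KO cells in 2i + Vitamin C, at 81.7%, and the imprinted genes at the top of the lost set are at or below 10.6% in KO cells.

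The lost promoters were few, and imprinted genes led them. Sgce, which encodes a sarcoglycan, and Peg10, a retrotransposon-derived gene needed in the placenta, share a start region whose 11 sites went from 58% in WT to 0% in KO cells. No methylated read was seen among 456 KO reads, summed over these sites. Taken as independent, these counts would allow a share of up to 0.658%. Where a read spans several sites it counts at each, and this limit is then too low. Single sites had 12 to 46 KO reads, with upper Wilson limits from 7.71% to 24.25%. The pooled difference was -57.9 points (interval -62.4 to -53.1). Plagl1 fell from 45% to 1.93% over 6 sites, on 485 and 400 reads. Airn fell from 53% to 10.6% over 7 sites, with KO sites between 6.48% and 12.5%. In WT cells the sites of these promoters lay between 37.5% and 60.9%, and no KO site reached the WT range. All of them were also lower in KO cells in 2i + Vitamin C: 20.9% against 0.755% for Sgce and Peg10, 19.22% against 0.909% for Plagl1, and 31.2% against 2.88% for Airn.

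**Figure D4:**
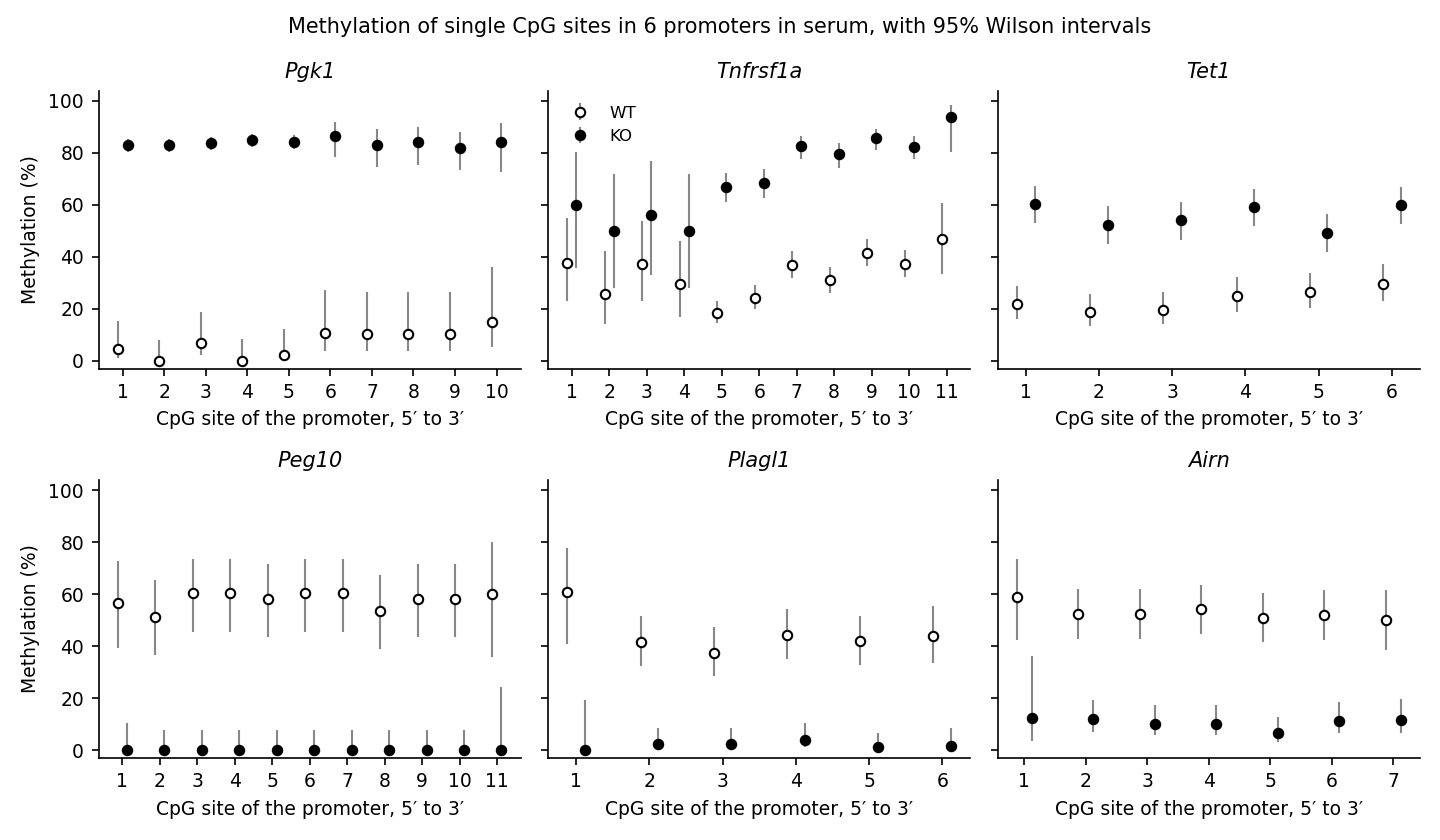
Methylation (vertical axis, %) of each measured CpG site of 6 promoters in serum, in 5′ to 3′ order, in WT (open) and KO cells (filled), with 95% Wilson intervals that cover counting error only. Pgk1 has KO sites from 81.7% to 86.4% above all WT sites, Peg10 has 0% at every KO site, and the intervals of the first 4 Tnfrsf1a sites overlap.

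Sfi1 fell from 34.8% to 1.3% over 33 sites, with 369 and 351 reads per site against medians of 88.4 and 120 for promoters. Its 3 tested 50 bp stretches had no further exact copy in mm9, and near copies and the other stretches were not searched. Mpi, mannose phosphate isomerase, fell from 30.2% to 3.96% with all 6 sites lost. The lincRNA 1810058I24Rik fell from 35.8% to 3.93% over 22 sites. Sh3rf2, an SH3 domain gene, fell from 79.8% to 49.3%, and Atp8b4, a phospholipid flippase gene, from 86.3% to 65.5% on 131 and 89 reads. Gm12356 was called at 30.1% and 9.91%, but its pooled reads differed by only -1.94 points and 5 of its 9 sites were higher in KO cells. Across the 8 lost promoters with at least 5 sites covered in 2i + Vitamin C, all 8 were lower in KO cells, with a median of -20.1 points, beside 10134 of all 11709 promoters and -0.889 points. Sgce and Peg10 are counted singly in these 8, although both have the same sites.

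Imprinted genes were described as a list of 56, of which 40 had a measured promoter and 35 a measured gene body. Of the 40 promoters, 4 were lost and 0 gained, beside 0.0761% lost and 0.533% gained over all promoters. The list median was 0.789 points, beside 1.06 points for all promoters. The 4 count Sgce and Peg10 singly, here and below, although both have the same sites. In the promoters and bodies of the list lay 1885 sites, or 0.32% of all sites, and 128 of the 677 lost sites (18.9%) but 16 of the 10736 gained sites (0.149%). Of the 10 imprinted promoters with a WT level of 20 to 80%, 4 were lost, beside 9 of all 627 promoters in that range. The other 6 were not called. Nnat went from 43.2% to 49%, Mcts2 from 32.7% to 35.6%, Meg3 from 62.2% to 58.6%, Mest from 54.1% to 47.2%, Snrpn from 44% to 34.6% and Inpp5f from 22.2% to 5.69%. Nap1l5, at 90.1% and 94.6%, stayed high in both.

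The same list held 4 of the 11 lost gene bodies, which are the exonic and intronic sites of a gene outside any promoter. Of 9464 gene bodies, 218 (2.3%) were gained and 11 (0.116%) were lost. Zfp777, a zinc finger gene, fell from 50% to 12.7% over 21 sites on 9792 and 14785 reads. Impact, an inhibitor of the kinase GCN2, fell from 56.1% to 24.1% over 25 sites, and Grb10, an adaptor of insulin receptor signalling, from 33.6% to 4.28% over 16 sites. With promoters of 500 bp each way, the Grb10 body had -19.8 points and lost its call. The body of Airn fell from 58.8% to 30.1%, and Igf2r, which it overlaps, went from 72.1% to 56.4% without a call. The fifth named loss, AI854703, went from 43% to 15.4% over 24 sites, all lower in KO cells. Slc22a18, an imprinted transporter gene, was the only imprinted body gained, from 47.7% to 70.2% over 5 sites. A loss from 100% to 22.7% at 2310016D23Rik over 6 sites touched a placed retrotransposon and was left out of the ranking.

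Gained gene bodies had a WT median of 48% and a KO median of 73.6%. Of their sites 61.7% were exonic, beside 53.8% for lost bodies and 42.3% for all bodies. The largest gain was at Gm16286 and Txnl4a, a subunit of the spliceosome, which overlap on chromosome 18, with 31.4% to 89.3% over 8 sites and 34.1% to 88.7% over 10 sites. The lincRNA Gm12526 rose from 30.7% to 86.5% over 5 sites, on 710 and 399 reads. Apod, a lipid carrier, rose from 26.3% to 72.3% on 80 and 64 reads, and 4930404N11Rik from 20.9% to 64.5% over 21 sites. The gained bodies include 1 in the deleted span, Gm16889, at 71.9% and 94.9% over 7 sites on 233 and 261 reads. It was left out of the ranking. A gene's promoter and body were compared where both were measured. Of 29 genes with a gained promoter, the body was gained in 5 (1700011E24Rik, 4930404N11Rik, Krt79, Lhcgr and Mb) and higher in 28, with a median of 8.1 points. Of all 6744 genes with both measured, the body was gained in 137 and higher in 6070, with a median of 4.19 points. Of the 6 lost promoters with a measured body, only Airn had a lost body, and 4 of the bodies were higher in KO cells.

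Of 57 listed germline genes, 33 promoters were measured, and 1 was gained and 0 were lost. Over all promoters 0.533% were gained and 0.0761% were lost, and 9.65% were gained among those with a mean level over 20 to 80%. KO values were above WT values at 32 of the 33 germline promoters and below at 1, beside 87.8% above for all promoters. The list median was 6.06 points beside 1.06 points for all promoters, but levels differed too, since the list had medians of 15.6% in WT and 29.8% in KO cells. All promoters with a mean level of 5 to 20% had a median difference of 3.24 points, and those of 20 to 80% one of 7.76 points. Hormad2, a protein of the meiotic chromosome axis, was the only one gained, from 21.2% to 41.2% over 18 sites, a change of 20.01 points that fell just inside the limit and, from pooled reads, of 18 points. Asz1, Sohlh2 and Tuba3b, with differences of 17.2, 17.1 and 16.8 points, lay just outside it. Dazl, needed for germ cell development, had 28.4% and 36.7% over 43 sites. Tex101 had 82.8% and 84.1%, and Stk31 was the lower one, with 10.2% and 5.62%. Among 13 measured germline bodies 1 was gained, Sohlh2, from 57.1% to 81.1%, beside 2.3% gained over all bodies.

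Among 17 measured promoters of DNA methylation genes 1 was gained, that of Tet1, beside 0.533% gained over all promoters. Tet1, which oxidises methylated cytosine, went from 23.5% to 55.8% over 6 sites, all of them gained, on 926 and 1037 reads (pooled interval 28.1 to 36.3 points). These sites lay 234 to 425 bp after a transcription start inside the gene, at 62342337 to 62342528 of chromosome 10. The annotated gene begins at 62361866 on the minus strand, and none of the 6 sites lay near that outer end. The other 16 measured promoters of this list had differences from -1.59 to 5.47 points, and Dnmt1, Dnmt3b and Uhrf1 were under 2% in both libraries. Of the 11 measured bodies, 0 were called, beside 2.3% gained and 0.116% lost over all bodies. All 11 had higher KO values, with a median of 9.01 points, beside 88.9% higher and 4.21 points for all bodies. Among 18 measured promoters of KAP1 pathway genes 1 was gained, beside the same 0.533% over all promoters. This was Atf7ip, a partner of SETDB1, which went from 26.6% to 50.1% over 24 sites, of which 6 were gained singly. It lost its call at a minimum of 5 reads, with 18.8 points. The 17 others lay between -0.412 and 2.24 points, and Setdb1 had 1.67% and 2.9%. Tet1, Atf7ip and Hormad2 lost their calls when differences were centred as above, at 16.5, 10.5 and 7.4 points.

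Lists of developmental genes had 0 called promoters, and at the shares over all promoters (0.533% gained and 0.0761% lost) few calls would be counted in lists of this size. There were 0 calls among 95 patterning transcription factors (median 1.67 points), 30 Hox genes (2.37 points), 23 primed and early lineage genes (1.7 points), 10 naive pluripotency genes (0.95 points) and 4 clustered protocadherins (9.51 points), beside 1.06 points for all promoters. The largest single values in the Hox and patterning lists were 18.9 points at Hoxc6 and 13.3 points at Pax8. Among 12 measured naive pluripotency bodies 1 was gained, Sall4, a transcription factor of ES cells, from 22.5% to 54% over 20 sites. Among 100 patterning bodies 1 was lost, Dlx5, a homeobox gene, from 48.4% to 27.2% over 14 sites. No body was called among 27 Hox genes, 27 primed and early lineage genes and 5 clustered protocadherins. Over all bodies, 2.3% were gained and 0.116% were lost. Chst1 and Cd59a lie beside ETn insertions examined in the study. Their promoter levels were 0.334% and 2% for Chst1 and 12.7% and 9.72% for Cd59a, neither called.

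**Figure D5:**
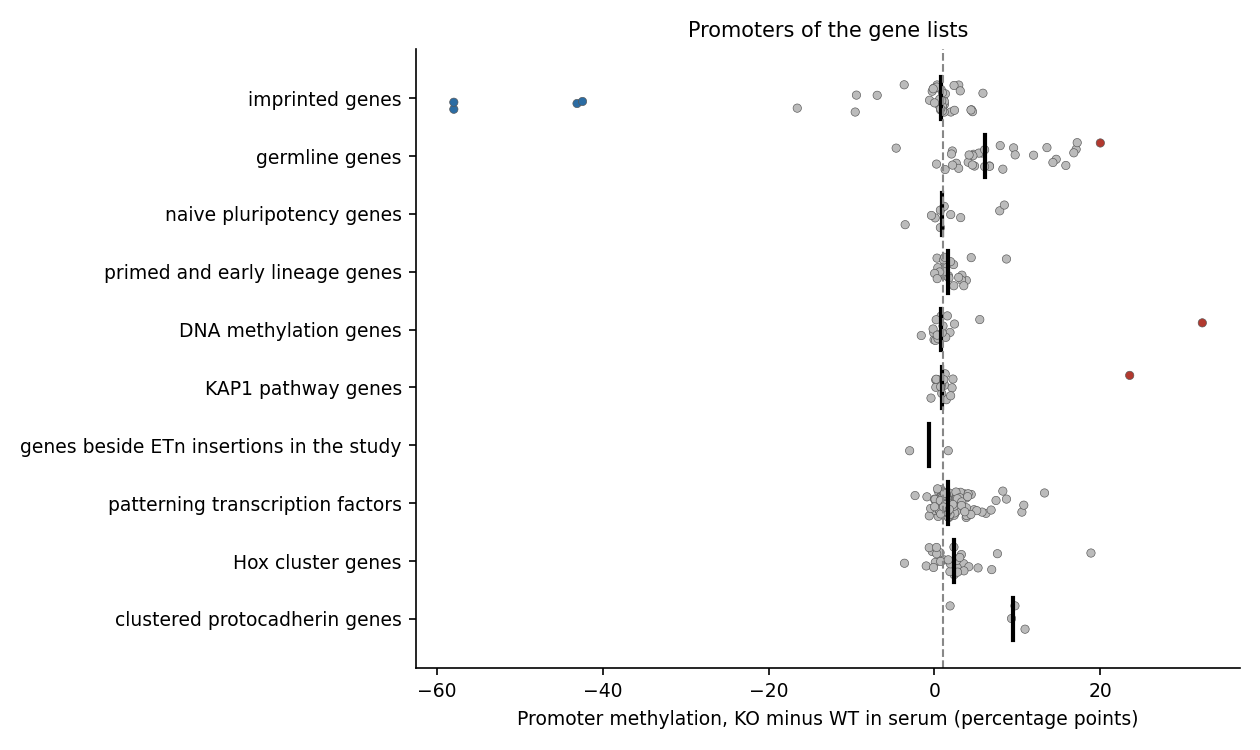
Difference in promoter methylation, KO minus WT in serum (horizontal axis, percentage points), for each measured gene of the 10 lists, red where gained, blue where lost and grey otherwise; black bars mark list medians and the dashed line the median of all promoters, 1.06 points. The 4 lost imprinted promoters, of which Sgce and Peg10 share their sites, lie between -58 and -42.4 points, and the germline list has its median at 6.06 points.

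Intergenic sequence was examined in 8043 windows of 1000 bp with at least 5 sites, of which 416 (5.17%) were gained and 25 (0.311%) were lost. Gained windows went from a median of 42% to 71.8%, against 77.7% and 83.6% for all windows. None of the gained windows but 4 of the lost ones touched a placed element, beside 40 of all 8043 windows. The largest gain was on chromosome 1 from 152933001 to 152934000, which went from 11.5% to 82.6% over 5 sites, 93168 bp from Hmcn1 and on 437 and 190 reads. A window on chromosome 2 from 84651001 to 84652000, 136 bp from the end of Smtnl1, went from 18.4% to 81.6%, beside the gain at the promoter of that gene. On chromosome 11, the windows from 50990001 and from 49403001 went from 24% to 76.5% and from 18.1% to 65.9%. The latter had 4387 reads in WT and 1202 in KO cells. A window on chromosome 4 from 17144001, at 30.5% and 77.6%, held 50 bp stretches with up to 2562 exact copies in mm9, so its reads cannot be assigned to 1 place.

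The largest losses outside genes were at chromosome 19 from 45266001 (83.9% to 35.6%), chromosome 4 from 51031001 (91.6% to 48.7%) and chromosome 16 from 20804001 (66.3% to 24%, 61978 bp from Chrd). They were followed by chromosome 5 from 109979001 (49.5% to 16.2% over 13 sites) and chromosome 3 from 96177001 (42.3% to 11.2% on 10700 and 11389 reads). A stretch of the window at 51031001 had 2367 exact copies in mm9 and those of the window at 96177001 had 2 copies each.

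The 2i + Vitamin C libraries are not shared with the serum comparison. Of the 70 gained promoters, 49 had at least 5 sites covered there, and 24 were higher and 25 lower in KO cells, with a median of -0.119 points. Pgk1 was the 1 promoter that was at least 20 points higher. Over all 11709 promoters measured there, 1566 were higher and 10134 lower, with a median of -0.889 points. The gained promoters had low levels in that medium, with medians of 5.08% in WT and 6.13% in KO cells. The gained bodies had a median of -1.39 points (42 higher and 92 lower), beside -1.81 points for all 7078 bodies (1369 higher and 5708 lower). The gained windows had -0.4 points (103 higher and 120 lower), beside -1.06 points for all 4638 windows (1507 higher and 3127 lower). Of the lost features measured there, 8 of 8 promoters and 9 of 9 bodies were lower in KO cells. Sgce and Peg10, counted singly among these promoters, share their sites. Of the lost windows, 5 were higher and 10 lower. Over all features of each kind, most were lower there as well. The lost bodies had a median of -13.3 points and the lost windows of -1.57 points. Whether the media differed was not tested.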

How the data were processed

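RRBS-seq data of 1 library per genotype and medium were used. Per the methods, the authors processed paired 50 bp reads with Trim Galore and aligned to mm9 by Bismark (versions not given in the sources used here), and joined the strands of each CpG dyad. Their deposited tables give read counts, methylated read counts and the methylated fraction per dyad, and no molecular identifiers are described, so intervals cover counting error only. The fraction was recomputed from the counts as deposited. The WT serum table held 332 rows whose position was listed more than once, which were left out. Sites that passed 10 reads had a median of 42 reads in WT and 48 in KO cells.

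GENCODE vM1 genes on mm9 defined promoters, bodies and windows. A feature with at least 5 sites was called at a mean difference of 20 points and a Benjamini-Hochberg adjusted p under 0.05 (two-sided Fisher's exact test on pooled reads, same direction). Calls were tested on simulated data. Alternatives changed the coverage minimum, the size and p limits, centring, pooling, the sites per feature, the promoter span and the sites included. Python 3.11.15, numpy 2.4.6, pandas 2.3.3, scipy 1.17.1 and numba 0.67.0 were used. ETn and RLTR4 elements were placed from the capture probe positions. The text names the 10 largest promoter gains and losses, called promoters of listed genes, and the 5 largest gains and losses among bodies and windows, leaving out placed elements and the deleted cluster. Members, lists and tests were chosen with earlier results of these data known.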

Additional observations from a re-analysis of the deposited data

Results flagged for a closer look

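The mean difference between KO and WT cells had opposite signs in the media. Over the 400195 sites covered by at least 10 reads in all 4 libraries it was 3.12 points in serum and -1.74 points in 2i + Vitamin C, and the difference between the media was not tested. Among the named promoters, bodies and windows with at least 5 sites in 2i + Vitamin C, a change of at least 10 points in the opposite direction was found at 2 windows, both on chromosome 11. The window from 50990001 gained 52.4 points in serum and had -19.97 points in 2i + Vitamin C (23% in WT and 2.99% in KO cells, on 187 and 531 reads). The window from 49403001 gained 47.8 points in serum and had -30.3 points in 2i + Vitamin C (31.7% and 1.45%, on 1074 and 1531 reads).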

How the results depend on the processing

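Of 263 values recomputed under 18 alternatives, 194 stayed within 1.5 times the reported count or share or within the counting interval of the mean. The mean difference was 3.43 points at a minimum of 5 reads, 3.26 at 20 reads, 3.12 at sites covered in all 4 libraries and 3.39 on autosomes, and reversed to -0.998 from pooled reads. At 5 reads, 16 promoters and 52 windows were lost and 643 windows gained. At 20 reads 252 windows were gained, and at sites in all 4 libraries 227 were gained and 15 lost. In both of these Gm12356 reversed, to 0.515 points. With a change of 10 points, 17525 sites, 353 promoters, 1407 bodies and 1287 windows were gained, 21 promoters, 28 bodies and 74 windows were lost, and the gained share was 1.48% in promoters and 5.85% in exons. With 30 points, 5109 sites, 20 promoters, 38 bodies and 105 windows were gained and 3 bodies and 8 windows lost. Gained shares were then 0.304%, 1.56%, 1.35% and 1.13% in promoters, exons, introns and intergenic sequence, and lost shares 0.108%, 0.0801% and 0.115% in the last 3. An adjusted p under 0.01 gave 1.8% and 1.37% gained in introns and intergenic sequence. Without a test, 33500 sites were gained and 3985 lost, with gained shares of 1.61%, 9.44%, 9.46% and 8.06% and lost shares of 0.1998%, 0.811%, 0.997% and 1.26% in the 4 classes. Centring on sites of the same mean methylation gave 3853 gained sites, 16 gained and 22 lost promoters, 27 and 21 bodies, 67 and 59 windows, and gained shares of 0.29%, 1.09%, 0.969% and 0.824%. Pooling the reads of a feature gave 334 gained and 31 lost bodies. At least 3 sites per feature gave 129 gained promoters, 351 gained and 18 lost bodies, and 978 gained and 65 lost windows, and at least 10 sites gave 18 and 5 promoters, 85 and 7 bodies, and 50 and 3 windows. Pgk1 and the lost promoters of imprinted genes kept their calls wherever they were measured. Features with few reads per site are limited by depth, and a difference between clones cannot be told apart from one between genotypes. No paired analysis was possible because each group has 1 library.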

Other observations

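The gained promoters also held genes outside the named set, chosen here after their values were seen. Siah1b, an X-linked ubiquitin ligase gene, had the lowest WT level of all gained promoters, with 1.41% in WT and 29.3% in KO cells over 21 sites, on 3947 and 4017 reads. Ldoc1 and Zcchc13, also on chromosome X, went from 25.7% to 61.5% and from 20.6% to 53.8%. Together with Pgk1 they made up the 4 gained promoters of that chromosome. Fas, a death receptor, went from 15.1% to 47.5% over 5 sites. Mb, the oxygen carrier myoglobin, went from 65% to 93%, and Cldn11, a tight junction gene, from 34.5% to 64% over 11 sites. None of the promoters of Ldoc1, Fas, Mb and Cldn11, each with at least 5 sites in 2i + Vitamin C, exceeded 8.89% there in either genotype.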
